A study of Mus musculus with 25 samples.

Results

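The genes of the proteasome were examined in hematopoietic stem cells with and without the zinc finger protein ZNF143. Members were all genes of the deposited table whose symbol starts with *Psma*, *Psmb*, *Psmc*, *Psmd*, *Psme*, *Psmf* or *Psmg*. This rule took 50 of 23116 genes and used no measured value. Of these, 48 encode a subunit, an activator, an inhibitor or an assembly factor of the proteasome. The other two share only the symbol: *Psmc3ip* encodes a partner of meiotic recombination proteins, and *Psmb6-ps2* is a pseudogene.

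The proteasome degrades proteins that carry a ubiquitin chain. Its 20S core is a stack of alpha and beta rings with the proteolytic sites inside, and the 19S regulatory particle binds the ubiquitin chain, unfolds the substrate with a ring of ATPases and feeds it into the core. In immune cells and under interferon, the catalytic subunits PSMB5, PSMB6 and PSMB7 are replaced by PSMB8, PSMB9 and PSMB10, which gives the immunoproteasome. Hematopoietic stem cells are known for a low rate of protein synthesis and for their dependence on protein quality control.

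Messenger RNA of sorted HSLAM cells (LSK+ CD150+ CD48-), the stem cells of bone marrow, was sequenced from male C57BL/6 adults aged 8 to 12 weeks. In all mice exon 1 of both *Znf143* alleles lay between loxP sites (*Znf143 f/f*). The 3 control libraries (WT) were *Rosa26ERT2-Cre-* and the 3 deleted libraries (KO) were *Rosa26ERT2-Cre+*. Both genotypes carried the floxed alleles and received tamoxifen for 10 days, whereas only the deleted group carried Cre, so that the presence of active Cre and the deletion cannot be told apart. The *Rosa26* locus is active in most tissues, so that the deletion was not limited to stem cells. Libraries are named by genotype and by the replicate number of their labels.

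*Zfp143*, the mouse gene of ZNF143, had 3.09, 4.45 and 3.68 FPKM in WT 1 to 3, and 0.156, 0.299 and 0.272 FPKM in KO 1 to 3. The deleted libraries thus held 6.48% of the control level, which matches *Znf143* deletion although the labels name the genotype a CTCF knockout. FPKM are fragments per kilobase of gene scaled to the size of the library, here set on a common scale with median-of-ratios size factors. The libraries held 38643255 to 57895793 fragments on genes. WT 2 and KO 1 stood apart from the other libraries of their genotype. WT 2 lay farther from WT 1 and WT 3 than these lay from each other in 46 of 50 members, and KO 1 likewise in 41 of 50. The shares of all genes are not given here, so these counts describe the libraries and no trait of the members. All 8 stem cell markers examined were present, with control means of 3.62 to 267 FPKM, and limma called *Ly6a* higher and *Mecom* lower in the deleted cells. Among 14 markers of cells outside the sorting gate, 11 were high enough to test and 4 of them were called higher in the deleted cells (*Cd48*, *Flt3*, *Elane* and *Ctsg*). The summed level of these 14 markers was 485 to 540.1 FPKM in control and 611 to 923 FPKM in deleted libraries. Most of it came from *Pf4*, the platelet factor 4 gene of megakaryocytes, which was not called (391 to 479 FPKM in control and 501 to 824 FPKM in deleted libraries, limma adjusted p 0.261). Without *Pf4* the sum was 61.3 to 93.6 FPKM in control and 99.6 to 109.8 FPKM in deleted libraries. *Il7r*, *Cd3e* and *Ly6g* did not exceed 0.217 FPKM in any library. These markers moved with genotype beside every difference given here, and their part in it was not tested. In such bulk samples, fewer cells of a type and less RNA per cell cannot be told apart.

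Among the 41 members with a promoter in the RefSeq table, only *Psmd10* carried both parts of the sequence that ZNF143 binds. It encodes gankyrin, a chaperone that helps to build the base of the 19S particle. The promoter of a gene was taken as the 250 bases before to 50 bases after its RefSeq start on GRCm38.p6. It was searched on both strands for ACTACAANT and TCCCAGNAT, which overlap by the terminal T when they form 1 site, and for TGACNNNGC, the core of the antioxidant response element that NRF1 and NRF2 bind. The 4 promoters with a match among the members given with full values follow, written 5′ to 3′ along the gene, with the matching bases in capitals.
Psmd10: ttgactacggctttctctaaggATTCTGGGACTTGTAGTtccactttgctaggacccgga
Psmb4: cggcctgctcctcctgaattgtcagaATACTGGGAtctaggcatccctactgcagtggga
Psmb5: acgtgaagttgTGACGTCGCggcgttgcca
Psmb6: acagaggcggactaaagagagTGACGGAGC

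The stretch of *Psmd10* lies on the minus strand at chrX:140956865-140956924, 213 to 154 bases before the start, and holds both parts on the strand opposite to the gene. The stretch of *Psmb4* lies on the minus strand at chr3:94887107-94887166 and holds only TCCCAGNAT. The stretches of *Psmb5* (chr14:54618024-54618053, minus strand) and *Psmb6* (chr11:70525327-70525356, plus strand) hold TGACNNNGC. Of the members, *Psmd10* and *Psmd11* held ACTACAANT, and *Psmb4*, *Psmd10* and *Psmd13* held TCCCAGNAT. Among all 32851 promoters, 1.49% held ACTACAANT, 2.35% held TCCCAGNAT and 0.213% held both. TGACNNNGC was found in 6 members (*Psmb5*, *Psmb6*, *Psmc6*, *Psmd9*, *Psmd12* and *Psme4*) and in 12.4% of all promoters. A match describes these letters only and does not show binding.

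Proteasome transcripts were abundant in both genotypes. The median member had a mean of 114 FPKM over the 6 libraries, whereas the median of all tested genes was 2.46 FPKM. Of 50 members, 38 lay above the 90th percentile of all tested genes. Within the 20S core, control levels per length ran from 609.7 FPKM of *Psmb1* to 17.0 FPKM of *Psma8*. Among the members that belong to the 19S particle they ran from 161 FPKM of *Psmd7* to 23.2 FPKM of *Psmd1*. The large activator *Psme4* was at 4.38 FPKM, and the pseudogene *Psmb6-ps2* was at 0.293 FPKM.

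With a limma fit over all 19296 genes with a mean of at least 0.1 FPKM, none of the 50 members passed an adjusted p of 0.05, whereas 1157 genes (6.00%) did. At an unadjusted p under 0.05 there were 11 members (22%) against 24.2% of all genes. Of these members 10 were higher (12.4% of all genes) and 1 was lower (11.8% of all genes) in the deleted cells. Limma's voom on fragments recovered from the FPKM called 1 member (*Psma8*, higher), beside 7.26% of all genes, 3.40% in that direction. A fit without the filter on low genes called 2 members (*Psmc2* higher and *Psmd10* lower), beside 5.44% of all genes. Leaving out WT 2 gave 4 members beside 11.6%, and leaving out KO 1 gave 2 beside 11.1%. The log2 fold change, deleted minus control, was above 0 in 41 of 50 members, against 50.8% of all genes, and its median was 0.11 over the members and 0.01 over all genes. Control and deleted libraries did not overlap in 19 members (38%, against 30.8% of all genes), 18 of them higher in the deleted cells (15.5% of all genes) and 1 lower (15.3% of all genes). On the FPKM as deposited, the median of all genes shifted by 0.11 and that of members to 0.22. Under the 3 scalings tried and voom, 41 members were higher and 3 were lower each time. Voom used median-of-ratios size factors like the main fit and so adds no further scaling. The other 6 changed direction (*Psma1*, *Psmb9*, *Psmd5*, *Psmd7*, *Psme2b* and *Psme4*).

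**Figure D1:**
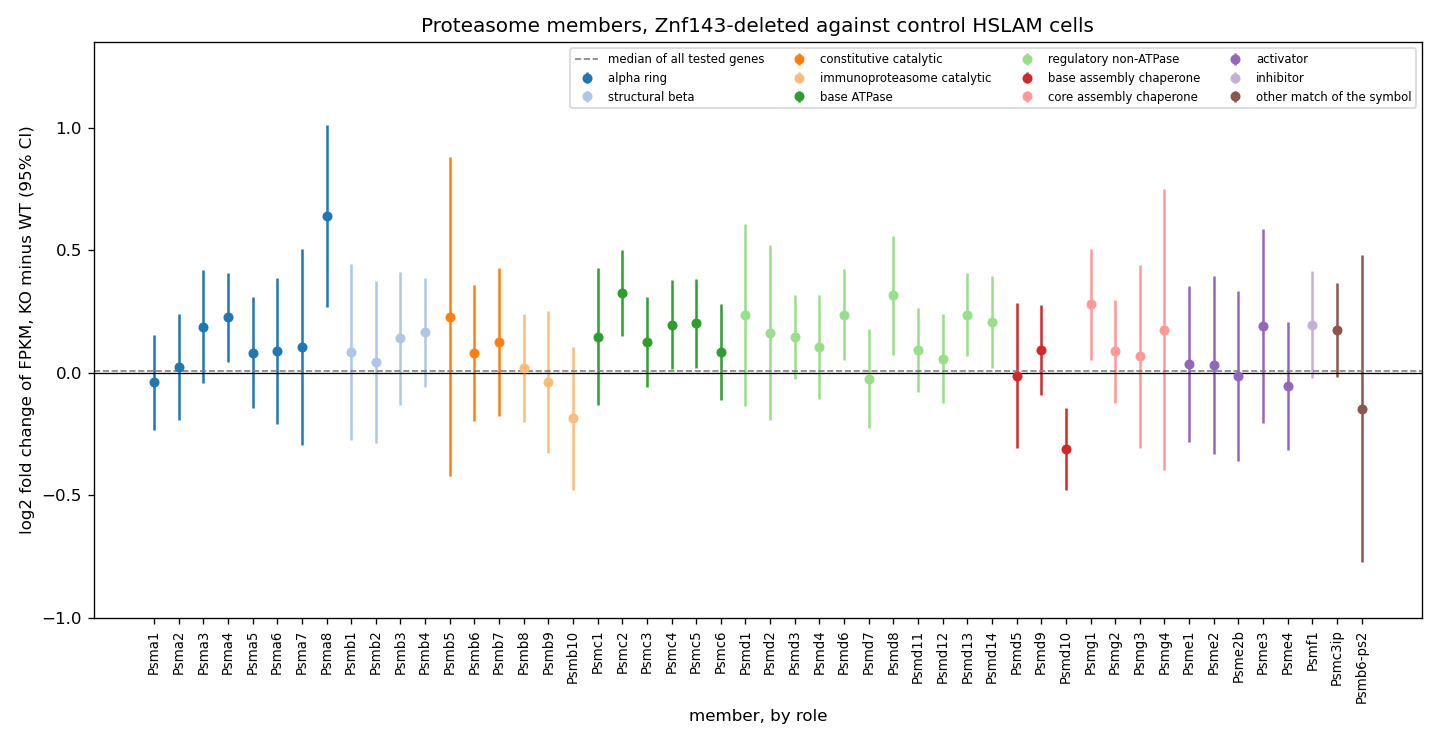
Log2 fold change of FPKM (vertical axis, deleted minus control) of each of the 50 members, grouped by role (colour), with 95% confidence intervals of the limma fit and the median of all tested genes as a dashed line. Most members lie between 0 and 0.33, *Psma8* is highest at 0.64 and *Psmd10* lowest at -0.31, and none passes the adjusted p of 0.05.

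*Psmd10* was the member that was lower in every deleted than in every control library. Its level was 54.3, 52.0 and 53.4 FPKM in WT 1 to 3, and 42.8, 43.9 and 42.0 FPKM in KO 1 to 3. All deleted libraries lay together below all control libraries. The log2 fold change was -0.31 (SE 0.0700, 95% confidence interval -0.48 to -0.14, n = 3 per genotype), and limma's adjusted p of 0.0528 missed the threshold. On the FPKM as deposited it was -0.20 with an adjusted p of 0.518, and over all alternatives the adjusted p ran from 0.00549 to 0.518. *Psmd10* lies on chromosome X from 140948429 to 140956728 of GRCm38 (minus strand, ENSMUSG00000031429.14), and its start is 179 bases from that of *Atg4a* on the other strand. *Atg4a* had a log2 fold change of -0.18 (SE 0.133, limma adjusted p 0.459). Of 59 tested genes with both parts of the ZNF143 sequence in a promoter, *Psmd10* among them, 41 had a log2 fold change below 0. Over all 19296 tested genes, 9502 did. Of the 59, 14 were called lower, beside 2.99% of all genes, and 2 were called higher, beside 580 of all genes. Of these 59, 44 are on the study's list of direct targets, which was chosen in part by gene expression. The members with only 1 part, *Psmb4*, *Psmd11* and *Psmd13*, had log2 fold changes of 0.17, 0.09 and 0.24.

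The other base assembly chaperones, *Psmd5* and *Psmd9*, had log2 fold changes of -0.01 and 0.09. The levels of *Psmd9* (10.2 ± 0.340 FPKM in control and 10.9 ± 0.0843 FPKM in deleted libraries, SD, n = 3) did not overlap, with a limma adjusted p of 0.516.

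The 6 ATPases of the 19S base were all above 0 in log2 fold change, with a median of 0.17 and a range of 0.09 to 0.33. In 4 of them, *Psmc2*, *Psmc3*, *Psmc4* and *Psmc5*, deleted libraries lay above control libraries without overlap, beside 15.5% of all genes. *Psmc2*, which encodes RPT1, had 36.0, 39.3 and 37.9 FPKM in WT 1 to 3, and 48.0, 46.7 and 47.1 FPKM in KO 1 to 3. Every deleted library was thus above every control library, with little spread among the deleted ones. The log2 fold change was 0.33 (SE 0.0734, 95% confidence interval 0.15 to 0.50), with a limma adjusted p of 0.0529. Over all alternatives, limma's adjusted p ran from 0.00533 to 0.223. Here too the low end came from the later comparison without WT 2 and KO 1. The lowest planned value was 0.0339, without WT 2. *Psmc2* lies on chromosome 5 from 21785283 to 21803787 (plus strand, ENSMUSG00000028932.7), with the start of *Dnajc2* at 32 bases on the other strand. Such a divergent start of another protein-coding gene within 1000 bases was found for 8 of 49 members, against 10.5% of tested genes. The summed FPKM of the 6 ATPases was 572 ± 23.5 in control and 645 ± 4.41 in deleted libraries (SD, n = 3).

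The members include 11 non-ATPase subunits of the 19S base and lid, ubiquitin receptors among them. Of these 11, 10 were above 0, with a median of 0.16 and a range of -0.02 to 0.32. In 6 of them the libraries did not overlap, all higher in the deleted cells, beside 15.5% of all genes (*Psmd3*, *Psmd6*, *Psmd8*, *Psmd11*, *Psmd13* and *Psmd14*, the last encoding the deubiquitinase RPN11). *Psmd8*, a lid subunit, had 90.8, 108 and 90.6 FPKM in WT 1 to 3, and 127, 116 and 116 FPKM in KO 1 to 3. WT 2 was the highest control and KO 1 the highest deleted library, without overlap. The log2 fold change was 0.32 (SE 0.102, limma adjusted p 0.123), and with WT 2 left out it was 0.40 with an adjusted p of 0.0394. The summed FPKM of the 11 subunits was 735 ± 11 in control and 814 ± 16.3 in deleted libraries. *Adrm1* and *Sem1* also encode 19S subunits but fall outside the symbol rule, and so outside these counts and sums. Their log2 fold changes were 0.003 and -0.011, and the genotypes overlapped in both.

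In the 20S core, 15 of 18 subunits were above 0, with a median of 0.09, and the libraries did not overlap in 3, *Psma4*, *Psma8* and *Psmb4*. All 3 were higher in the deleted cells, a share near the 15.5% of all genes. *Psma8* encodes an alpha subunit known from the testis, where it takes the place of PSMA7. It had 14.5, 21.2 and 15.4 FPKM in WT 1 to 3, and 24.2, 26.8 and 27.9 FPKM in KO 1 to 3, so that WT 2 came closest to the deleted libraries. The log2 fold change was 0.64 (SE 0.156, 95% confidence interval 0.27 to 1.01), a fitted 1.56-fold, with a limma adjusted p of 0.0629. Without WT 2 it was 0.81 with an adjusted p of 0.0107, and voom gave 0.64 with an adjusted p of 0.0484. *Psma7* was far more abundant, at 271 ± 43.3 FPKM in control and 292 ± 50 FPKM in deleted libraries (SD, n = 3). *Psma8* and *Psma7* are close in sequence, and how reads that match both were counted is not given in the sources used here.

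The other 7 alpha subunits had log2 fold changes of -0.04 to 0.23. Of the 4 structural beta subunits, which lack a proteolytic site, *Psmb4* had the largest log2 fold change, 0.17 (SE 0.0935, limma adjusted p 0.332). Its levels were 165, 182 and 159 FPKM in WT 1 to 3, and 199, 184 and 184 FPKM in KO 1 to 3. WT 2 nearly reached the lowest deleted library.

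**Figure D2:**
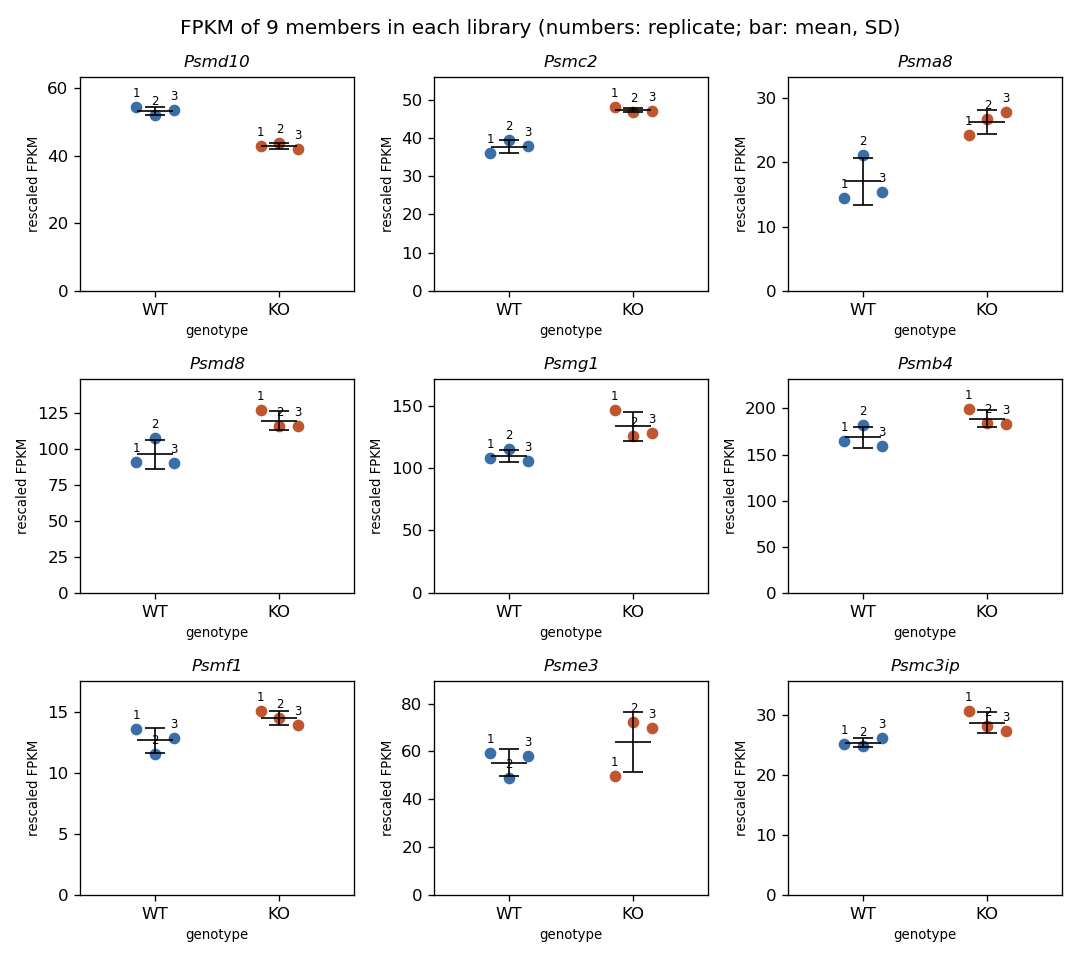
Rescaled FPKM (vertical axes, from 0) of 9 members in each library by genotype, with replicate numbers beside the points and bars for the mean and SD. *Psmd10* is lower and *Psmc2*, *Psma8*, *Psmd8*, *Psmg1*, *Psmb4*, *Psmf1* and *Psmc3ip* are higher in each of the 3 deleted libraries than in any control library, while *Psme3* overlaps.

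The 3 constitutive catalytic subunits overlapped between genotypes. *Psmb5*, which carries the chymotrypsin-like site, had 375, 190.2 and 331 FPKM in WT 1 to 3, and 411, 301 and 308 FPKM in KO 1 to 3. WT 2 lay far below all other libraries. The log2 fold change was 0.23 with a wide interval (-0.42 to 0.88), and without WT 2 it was -0.07.

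*Psmb6*, with the caspase-like site, had 360.4, 379 and 334 FPKM in WT 1 to 3, and 422, 368 and 348 FPKM in KO 1 to 3. *Psmb7*, with the trypsin-like site, had the lowest FPKM of the catalytic subunits, with 32.4, 42.2 and 36.2 FPKM in WT 1 to 3, and 45.0, 37.6 and 38.2 FPKM in KO 1 to 3. The log2 fold changes of *Psmb6* and *Psmb7* were 0.08 (95% confidence interval -0.20 to 0.36) and 0.13 (-0.17 to 0.43). FPKM depend on the deposited gene length, 3421 bases for *Psmb7* and 899 for *Psmb5*. In fragments per library, *Psmb7* had 4248 to 7584 and *Psmb5* had 8378 to 16315.

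The immunoproteasome subunits were abundant in control cells and were not called different in deleted cells. *Psmb8* had 325, 308 and 308 FPKM in WT 1 to 3, and 335, 314 and 305 FPKM in KO 1 to 3. The genotypes overlapped, and the log2 fold change was 0.02 (95% confidence interval -0.20 to 0.24), whose upper end is 1.18-fold. *Psmb9* had 104, 117 and 99.7 FPKM in WT 1 to 3, and 121, 96.9 and 95.5 FPKM in KO 1 to 3, with a log2 fold change of -0.04 (95% confidence interval -0.33 to 0.25). *Psmb10* had 199, 246 and 196 FPKM in WT 1 to 3, and 203, 181 and 178 FPKM in KO 1 to 3. KO 1 lay within the range of the control libraries, and the log2 fold change was -0.19 (95% confidence interval -0.48 to 0.11). *Psmb9* shares exonic bases with *Tap1* on the other strand, and *Psmb8* with *Gm20496*. Of the constitutive subunits, *Psmb7* shares exonic bases with *Nek6* on the other strand and *Psmb5* with *Mir686* on the same strand. The library kit is not described as stranded.

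The ratio of an immunoproteasome subunit to the constitutive subunit that it replaces does not depend on the scaling of a library. Its size, like that of the shares below, does depend on the gene lengths used for FPKM, which are the same in all libraries. *Psmb10* to *Psmb7* was 6.14, 5.84 and 5.42 in WT 1 to 3, and 4.51, 4.82 and 4.65 in KO 1 to 3. All deleted libraries were below all control libraries, with a log2 difference, deleted minus control, of -0.31 (two-sided exact permutation p = 0.1, 0.15 after adjustment over the 3 pairs). *Psmb9* to *Psmb6* was 0.287, 0.308 and 0.298 in WT 1 to 3, and 0.285, 0.263 and 0.274 in KO 1 to 3, a log2 difference of -0.12 without overlap (exact permutation p = 0.1, adjusted 0.15). *Psmb8* to *Psmb5* was 0.865, 1.62 and 0.931 in WT 1 to 3, and 0.815, 1.05 and 0.991 in KO 1 to 3. These overlapped, with WT 2 far above the rest through its low *Psmb5* (log2 difference -0.21, exact permutation p = 0.8, adjusted 0.8), and without WT 2 the difference was 0.07. With 3 libraries per genotype, 0.1 is the smallest p this test allows. Of all catalytic FPKM, the immunoproteasome subunits made up 45.0, 52.4 and 46.3% in WT 1 to 3, and 42.9, 45.6 and 45.4% in KO 1 to 3. The genotypes overlapped, at 47.9 ± 3.95% in control and 44.6 ± 1.54% in deleted libraries (SD, n = 3), and the control mean without WT 2 was 45.6%.

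**Figure D3:**
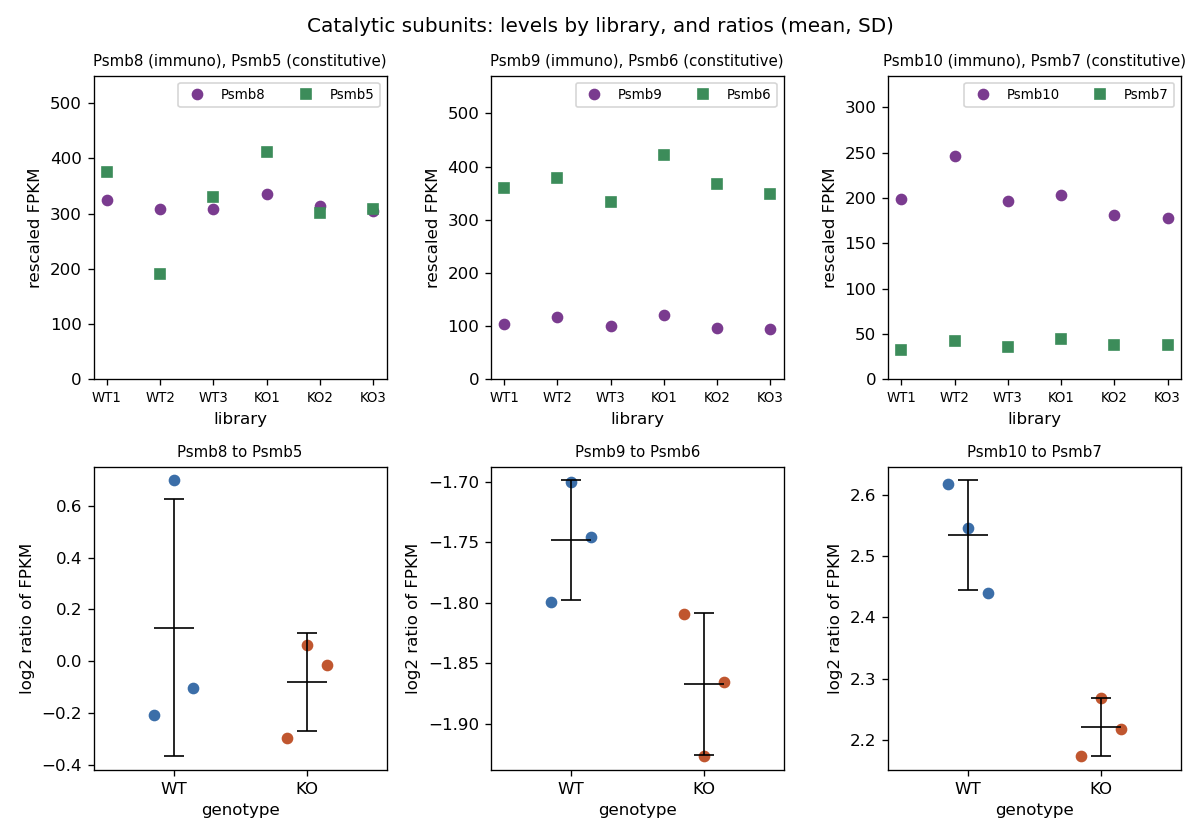
Upper row, rescaled FPKM of each immunoproteasome subunit (circles) and the constitutive subunit it replaces (squares) in each library. Lower row, log2 ratio of both by genotype with mean and SD, on axes that do not start at 0 and differ in range, where *Psmb10* to *Psmb7* and *Psmb9* to *Psmb6* do not overlap between genotypes and *Psmb8* to *Psmb5* does.

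Of the activators, which open the core without ubiquitin, *Psme1* and *Psme2* encode PA28 alpha and beta, induced by interferon together with the immunoproteasome. *Psme1* had 235, 297 and 239 FPKM in WT 1 to 3, and 293, 242 and 255 FPKM in KO 1 to 3. *Psme2* had 240.0, 325 and 246 FPKM in WT 1 to 3, and 308, 257 and 259 FPKM in KO 1 to 3. In both genes WT 2 and KO 1 were the highest libraries of their genotype, and the log2 fold changes were 0.04 (95% confidence interval -0.28 to 0.36) and 0.03 (-0.33 to 0.39).

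*Psme3*, the nuclear PA28 gamma, had 59.4, 48.7 and 58.0 FPKM in WT 1 to 3, and 49.6, 72.3 and 69.8 FPKM in KO 1 to 3. WT 2 and KO 1 were low here, and the other deleted libraries lay above all control libraries (log2 fold change 0.19, SE 0.166, limma adjusted p 0.534). *Psme4*, encoding PA200, and the retrocopy *Psme2b* had log2 fold changes of -0.05 and -0.01. Reads of *Psme2* and *Psme2b*, and of *Psmb6* and *Psmb6-ps2*, may have been shared between the copies. *Psmf1*, which encodes the inhibitor PI31, had 13.6, 11.6 and 12.8 FPKM in WT 1 to 3, and 15.1, 14.5 and 13.95 FPKM in KO 1 to 3, without overlap (log2 fold change 0.20, SE 0.0919, limma adjusted p 0.248).

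The 4 chaperones of core assembly were above 0, between 0.07 and 0.28 in log2 fold change. *Psmg1*, which pairs with *Psmg2* to build the alpha ring, had 108, 115 and 106 FPKM in WT 1 to 3, and 147, 125 and 128 FPKM in KO 1 to 3. KO 1 was the highest, and the genotypes did not overlap (log2 fold change 0.28, SE 0.0949, limma adjusted p 0.136). Of these 4, *Psmg4* spread most between libraries, at 221 ± 55.5 FPKM in control and 250.5 ± 68.2 FPKM in deleted libraries (SD, n = 3). *Psmc3ip*, which is no proteasome gene, had 25.2, 24.8 and 26.2 FPKM in WT 1 to 3, and 30.7, 28.1 and 27.3 FPKM in KO 1 to 3 (log2 fold change 0.17, SE 0.0799, limma adjusted p 0.239).

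WT 2 and KO 1 deviated from the other libraries of their genotype in the same direction in 36 of 50 members. The share of all genes that did so is not given here. Over all tested genes, the deviations of WT 2 and KO 1 from their genotype means had a correlation of 0.0874. The 33 members of up to 3000 bases had a median deviation of 0.13 in WT 2 and 0.12 in KO 1 on the log2 scale, and the 17 longer members 0.06 and 0.02. *Psmd1*, *Psmd2* and *Psme3* were lowered in both libraries, whereas *Psmb5* was low in WT 2 and high in KO 1. With both left out, a comparison of 2 against 2 libraries added after the data were seen, 21 of 50 members (42%) were called, against 41.5% of all genes. Of these, 19 were higher (21.8% of all genes) and *Psmb10* and *Psmd10* were lower (19.8% of all genes). The share of members called in both directions together thus lay at the background. By direction, the share called higher lay above that of all genes and the share called lower lay below it. This split was not tested. The median over members was 0.11 in this comparison as with all libraries.

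**Figure D4:**
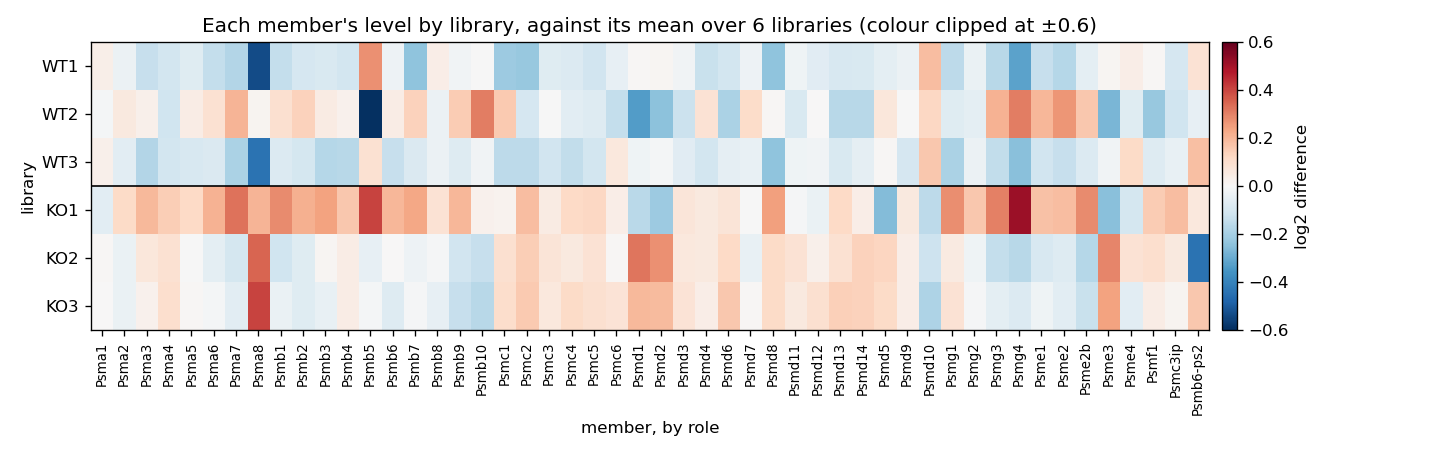
Log2 difference of each member (columns, by role) in each library (rows) from its mean over the 6 libraries, with red above and blue below the mean and the colour clipped at 0.6. KO 1 is red over most of the core and its assembly chaperones, WT 2 departs from WT 1 and WT 3 at *Psmb5*, *Psmb10* and *Psmd1*, and *Psmd10* is red in all control and blue in all deleted libraries.

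The study lists direct targets of ZNF143, chosen by ZNF143 on promoters together with gene expression, so that the list is not independent evidence of a direction. It holds 13 of the 50 members, 9 of them subunits of the 19S particle, 3 of the 20S core, and *Psmd10*. Of these 13, 11 had a log2 fold change above 0, with a median of 0.10 and a range of -0.31 to 0.24, and only *Psmd10* and *Psmd7* were below 0. The 37 members outside the list had a median of 0.11. Over all 1345 tested genes on the list the median was -0.13, and 484 were above 0. None of these differences was tested, and the ChIP-seq and HiC samples were not analysed here.

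Genes outside the symbol rule that work with the proteasome or, like *Adrm1* and *Sem1*, encode 19S subunits were described from a list of 24. From this list, 23 were found and tested. Of these, 1 was called, *Uchl5*, a deubiquitinase bound to the 19S particle, beside 6.00% of all genes. It had 69.5, 78.1 and 71.6 FPKM in WT 1 to 3, and 97.1, 100.02 and 101 FPKM in KO 1 to 3, with all deleted libraries above all control libraries (log2 fold change 0.45, SE 0.0810, limma adjusted p 0.0287). The call held under 9 of 16 alternatives, and limma's adjusted p ran from 0.00186 to 0.157. The low end came from leaving out both WT 2 and KO 1, added after the data were seen. The lowest planned value was 0.0176, without WT 2. The call was lost with the FPKM as deposited, without a variance trend, with the replicate block, and without WT 1, WT 3, KO 2 or KO 3. The 22 others did not pass, among them *Nfe2l1*, which encodes NRF1, the transcription factor that raises proteasome genes when degradation is impaired (7.66 ± 0.765 FPKM in control and 7.61 ± 0.271 FPKM in deleted libraries, SD, n = 3). The median over the list was 0.00, with 12 above and 11 below 0. Of 8 genes of antigen presentation, which shares interferon control with the immunoproteasome, none passed the limma test or an unadjusted p under 0.05, and the median was -0.08.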

How the data were processed

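Libraries of 3 control and 3 deleted HSLAM samples were analysed from 1 table. For the authors' files, reads were trimmed (TrimGalore), mapped to GRCm38 (STAR), assigned to genes (FeatureCounts) and tested (DESeq2). The authors deposited FPKM per library and gene length. The deposited columns of their comparison (mean normalised signal, log2 fold change, Wald score, p-value and adjusted p-value) were not used. FPKM times length gave whole fragments in 138677 of 138696 values (within 0.05). Since KO 3 carries the FPKM divisor of KO 2, all libraries were put on the scale of median-of-ratios size factors.

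Genes averaging at least 0.1 FPKM were fitted with limma 3.58.1 (R 4.3.3) after adding 0.1 and taking log2, with a variance trend, no block and Benjamini-Hochberg adjustment over all tested genes. Fold changes of low genes are therefore understated. The fit was tested on simulated data. The paper describes the samples as biological replicates from pairs of littermates. Which control and deleted libraries came from 1 litter is not given in the sources used here. Ratios were compared with exact permutation tests in scipy 1.17.1. Coordinates came from GENCODE M21 and promoters from RefSeq. Given in full were members with an adjusted p under 0.05, the catalytic subunits, *Psme1*, *Psme2* and, for each role, the member with the largest fold change. *Psmd5*, *Psmd9*, *Psma7*, *Psmg4*, *Adrm1*, *Sem1*, *Nfe2l1* and *Pf4* were named after their values were seen. Members and lists were chosen with earlier results of these data known. 1 marker of cells outside the gate is not reported here.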

Additional observations from a re-analysis of the deposited data

How the results depend on the processing

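No member was called with the FPKM as deposited, each library divided by its own recovered total, pseudocounts of 0.01 or 1, a mean FPKM of at least 1, no variance trend or the replicate block. Without a filter, 1 member was called higher (*Psmc2*) and 1 lower (*Psmd10*), and voom called 1 higher. With single libraries left out, 0 to 3 members were called higher, 0 to 1 lower, and 223 to 2240 genes in all. The calls appeared without WT 2 (*Psmc2*, *Psma8*, *Psmd8* and *Psmd10*) and without KO 1 (*Psmc2* and *Psmd10*), and the cause was not tested. Without both, an alternative added after the data were seen, 19 members were called higher, 2 lower and 8010 genes in all. The member median was 0.22 with the FPKM as deposited and 0.09 to 0.14 with single libraries left out. On the FPKM as deposited, 529 of 833 calls were higher and 304 lower, against 580 and 577 after rescaling.

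Control and deleted libraries of equal number had correlations of deviations of -0.0944, -0.0883 and 0.0348. Only WT 3 and KO 3 correlated best with their own number. With 3 libraries per genotype, such values cannot decide whether equal numbers mark littermates. A fit with the replicate block called 191 genes. Small differences changed sign. *Psmb9* was 0.077 with the FPKM as deposited, *Psmb5* was -0.21 and *Psmb8* -0.030 without both libraries, and with single libraries left out *Psmb5* ran from -0.066 to 0.42, *Psmb8* from -0.018 to 0.049, *Psmb9* from -0.14 to 0.030, *Psme1* from -0.041 to 0.15 and *Psme2* from -0.053 to 0.17. The log2 difference in the ratio of *Psmb8* to *Psmb5* ran from -0.38 to 0.074. Every member but *Psmb6-ps2* had at least 614 fragments in each library, and the spread between 3 libraries limited the precision.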
